A study of Caenorhabditis elegans with 245 samples.

Results

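The proteasome subunit genes of Caenorhabditis elegans were taken as every gene whose name starts with pas-, pbs-, rpt- or rpn- in the gene columns of the mRNA tables. The rule used names alone and found 33 genes, the same 33 in each table, among 47638 rows for embryos sired by mutant or WT males and 47639 rows for injected embryos and for F1 adults. They comprise 7 alpha ring genes (pas-1 to pas-7), 7 beta ring genes (pbs-1 to pbs-7), 6 ATPases of the base (rpt-1 to rpt-6), 4 non-ATPase scaffolds or ubiquitin receptors of the base (rpn-1, rpn-2, rpn-10 and rpn-13) and 9 lid genes. Endo-siRNAs, the antisense small RNAs that worms make against their own transcripts, were matched to the same 33 genes through the transcript names of the small RNA tables.

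The series asks what the loss of rnst-2, which encodes an RNase T2 ribonuclease, does to the small RNAs of males and their sperm and to the offspring of those males. Of its 245 samples, 45 are small RNA libraries and the rest are mRNA libraries of single embryos or of adult F1 animals, in 22 groups. All animals carried fog-2, so that XX animals made no sperm of their own and are called females. Embryos from rnst-2(pen1) deletion fathers and WT mothers (rnst-2-sired, genotype rnst-2(pen1)/+;fog-2) were collected at 8 cells (n = 26) and 2 cells (n = 25), beside WT-sired embryos at 8 cells (n = 20) and 2 cells (n = 30). In a second set every father was an rnst-2 deletion male, and the mothers' germ lines were injected with oligonucleotides against fragments of tRNA (tDRs) plus GFP mRNA (anti-tDR, 20 embryos at 8 cells and 23 at 2 cells) or with GFP mRNA alone (GFP, 18 and 26). Adult F1 females and males were rnst-2-sired, with the genotype rnst-2(pen4)/+;fog-2 in which pen4 is a catalytic-site allele (n = 3 for each sex), or WT-sired (n = 3 for each sex). The paper's figure legend for these adults names deletion fathers instead, so the allele of the fathers is not settled. The rnst-2-sired embryos and adults thus had a WT copy from the mother. Small RNA libraries came from WT sperm (n = 4) and whole WT males (n = 4), whole males homozygous for the catalytic allele (cat/cat, n = 6) or heterozygous (cat/+, n = 5), whole males homozygous for the deletion (del/del, n = 6) or heterozygous (del/+, n = 5), cat/cat sperm (n = 4) with whole cat/cat males of that experiment (n = 3), and del/del and del/+ females (n = 4 each). By the paper's methods heterozygotes carried a balancer chromosome, which homozygotes lacked. The catalytic allele was made in a GFP-tagged rnst-2 gene, so cat/cat sperm carried a tag that WT sperm lacked. The labels do not say on which day an embryo was collected, and nothing in them says that adult replicates came from separate cultures, so p-values measure the spread between these samples.

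The proteasome is the main ATP-dependent protease of the cytoplasm and nucleus, and it degrades proteins tagged with ubiquitin. Alpha rings gate the entrance of a barrel whose beta rings hold the protease sites, and of the beta genes pbs-1, pbs-2 and pbs-5 encode the catalytic subunits. The base unfolds substrates with its ATPases, and the lid removes the ubiquitin chain through the metalloprotease RPN-11. In early worm embryos the proteasome is required for the change from meiosis to mitosis and for clearing maternal proteins, and in C. elegans the transcription factor SKN-1A raises the expression of subunit genes when proteasome activity is low.

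The sequences before 6 of the genes are printed because these genes carry the main patterns described here: pas-1, pas-7 and rpt-6 were lower in 8-cell than in 2-cell embryos, pbs-1 is a catalytic subunit that was not called between the stages, and rpn-6.1 and rpn-6.2 are paralogs with opposite differences between the sexes. Each line is the exon-free end of the 250 bases before the annotated gene start in WBcel235, on the strand of the gene, 5′ to 3′. Capitals mark TGTCAT or TATCAT on either strand, the core of the element that SKN-1 proteins bind, and a terminal CAG or TAG, the letters of a splice acceptor.
pas-1 (V:14422619-14422724, minus strand): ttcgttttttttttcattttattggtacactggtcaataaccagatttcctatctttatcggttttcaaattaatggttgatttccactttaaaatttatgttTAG
pas-7 (II:10099855-10099962, minus strand): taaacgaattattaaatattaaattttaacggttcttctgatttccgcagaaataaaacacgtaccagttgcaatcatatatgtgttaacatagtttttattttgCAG
rpt-6 (III:12370206-12370455, plus strand): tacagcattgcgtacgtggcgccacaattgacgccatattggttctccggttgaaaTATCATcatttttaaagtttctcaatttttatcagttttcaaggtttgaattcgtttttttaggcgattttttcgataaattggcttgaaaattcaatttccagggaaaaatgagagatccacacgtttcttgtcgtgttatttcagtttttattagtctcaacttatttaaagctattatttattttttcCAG
pbs-1 (IV:1709746-1709995, minus strand): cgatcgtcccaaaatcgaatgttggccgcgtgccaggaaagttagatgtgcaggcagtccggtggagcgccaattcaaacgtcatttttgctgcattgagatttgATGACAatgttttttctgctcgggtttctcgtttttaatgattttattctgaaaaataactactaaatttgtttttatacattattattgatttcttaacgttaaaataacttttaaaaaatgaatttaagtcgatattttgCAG
rpn-6.1 (III:6962002-6962089, minus strand): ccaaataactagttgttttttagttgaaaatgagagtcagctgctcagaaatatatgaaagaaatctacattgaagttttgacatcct
rpn-6.2 (III:9002000-9002053, minus strand): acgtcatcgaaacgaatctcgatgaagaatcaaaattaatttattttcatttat

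In the lines above, rpt-6 and pbs-1 hold 1 core each and the other 4 hold none. The full window of rpn-6.1, of which 123 bases are exon, held 2 cores, both outside its printed line. Over the full 250 bases, 12 of the 33 windows (36.4%) held the core, against 5351 of 19973 windows of all protein-coding genes (26.8%). Among windows free of exons it was 9 of 19 (47.4%), against 4040 of 15033 (26.9%). A window that ended in CAG or TAG was found for 21 of 33 members (63.6%) and for 5033 of all genes (25.2%). These are matches of letters in a single window per gene. The coding sequences of rpn-6.1 and rpn-6.2, of 1314 and 1248 bases, shared no run of 31 bases and at most 14 bases in a row, so that reads of the length used here can tell them apart.

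mRNA levels are given in TPM, transcripts-per-million, a share of a library's transcripts after division by transcript length, so a level is always relative to the rest of the library and carries no read depth. In such samples fewer cells of a type and less RNA per cell cannot be told apart. Single embryos had between 3132 and 11160 genes above 1 TPM. By gene number or body muscle markers, 4 rnst-2-sired, 3 WT-sired, 1 anti-tDR and 1 GFP embryos at 8 cells stood apart from their groups. Of these, 1 rnst-2-sired embryo had 702.86 TPM of body muscle markers. The embryos of its group that were not set apart by muscle markers had at most 44.15 TPM. At 2 cells, 3 rnst-2-sired, 5 WT-sired, 7 anti-tDR and no GFP embryos had under 5000 genes above 1 TPM. The transcript of rnst-2 itself averaged 0.512 TPM in rnst-2-sired and 3.24 TPM in WT-sired 2-cell embryos, and 4.54 against 8.27 TPM at 8 cells, with overlapping ranges. In F1 adults it averaged 13.7 against 19.4 TPM in females and 21.9 against 35.5 TPM in males, without overlap. The deletion is not checked by the embryos, which carry the mother's copy. Small RNA libraries held between 4976236 (a del/+ male library) and 51191372 counts (a WT sperm library).

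Between 2 and 8 cells, when the embryo still lives largely on maternal mRNA, 6 of the 7 alpha ring mRNAs had a negative fold change in every kind of embryo, while the beta ring mRNAs were divided. In rnst-2-sired embryos 8 of 33 members tested fell and 0 rose, where 11.4% of all 6763 genes fell and 9.88% rose. In WT-sired embryos 10 of 32 fell and 2 rose (all 6603 genes: 9.19% fell, 25.5% rose). In anti-tDR embryos 2 of 32 fell and 0 rose (all 6585 genes: 3.98% fell, 8.64% rose), and in GFP embryos 13 of 32 fell and 0 rose (all 6506 genes: 21% fell, 7.93% rose). A gene was called at an adjusted p under 0.05 in limma on log2(TPM + 1). The median log2 fold change over the members was −0.35, 0.07, −0.23 and −0.37 in rnst-2-sired, WT-sired, anti-tDR and GFP embryos, beside 0.10, 0.37, 0.25 and −0.16 over all genes tested in the same order of groups. The ranges of 8-cell and 2-cell embryos overlapped for every member. Scaling by the median of ratios gave 9 lower and 3 higher members in rnst-2-sired, 8 and 3 in WT-sired, 2 and 0 in anti-tDR and 11 and 3 in GFP embryos. Among all genes it called 758 lower and 999 higher, 715 and 1900, 240 and 765, and 1188 and 918 in that order.

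**Figure D1:**
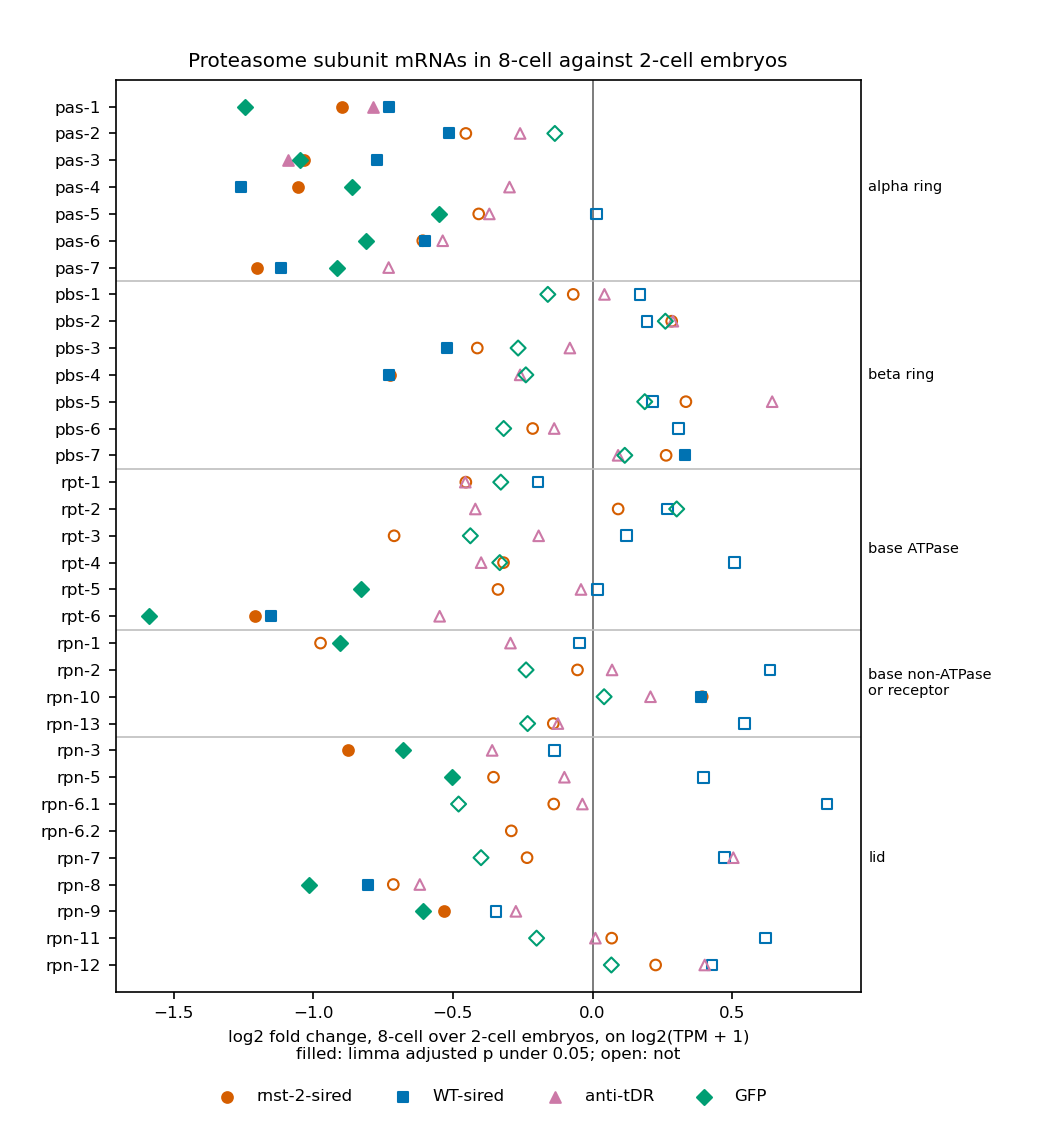
Log2 fold change of each of the 33 subunit mRNAs in 8-cell over 2-cell embryos (x axis, on log2(TPM + 1)), with 1 marker for each kind of embryo, filled where limma's adjusted p was under 0.05. Of the 7 alpha ring genes, 6 lie left of 0 in all 4 kinds of embryo, while pbs-2, pbs-5 and pbs-7 lie right of 0 in all 4.

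Alpha ring genes made up 4 of the 8 members that fell in rnst-2-sired embryos, 6 of 10 in WT-sired, both in anti-tDR and 6 of 13 in GFP embryos. Their median log2 fold change was −0.90 in rnst-2-sired, −0.73 in WT-sired, −0.54 in anti-tDR and −0.86 in GFP embryos. The 7th, pas-5, was near 0 in WT-sired embryos and fell only in GFP embryos, at −0.55 (limma adjusted p = 0.0473). For pas-3 the lowest, median and highest levels in rnst-2-sired embryos were 50.95, 131.825 and 213.78 TPM at 8 cells and 142.41, 253.46 and 1075.51 TPM at 2 cells. In WT-sired embryos they were 34.52, 124.5 and 186.98 TPM at 8 cells and 99.51, 201.02 and 393.5 TPM at 2 cells. In anti-tDR embryos they were 34.28, 153.115 and 244.88 TPM at 8 cells and 142.4, 306.35 and 536.21 TPM at 2 cells, and in GFP embryos 34.29, 148.035 and 280.95 TPM at 8 cells and 105.64, 308.99 and 483.71 TPM at 2 cells. The 8-cell median lay below the lowest 2-cell embryo in the rnst-2-sired set, and in the other sets between the lowest 2-cell embryo and the 2-cell median. The log2 fold change of pas-3 was −1.03 ± 0.17 (SE) in rnst-2-sired, −0.77 ± 0.16 in WT-sired, −1.09 ± 0.21 in anti-tDR and −1.05 ± 0.17 in GFP embryos, with limma adjusted p values of 2.65e-06, 0.000165, 4.7e-05 and 1.68e-06.

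pas-1 was the other member called in all 4 kinds of embryo. In GFP embryos it ran over 82.69, 280.32 and 478.62 TPM (lowest, median, highest) at 8 cells and 417.14, 627.935 and 913.92 TPM at 2 cells, so that only the top of the 8-cell range reached the 2-cell range. The log2 fold change was −1.25 ± 0.15 (limma adjusted p = 1.09e-09). It was −0.90 in rnst-2-sired, −0.73 in WT-sired and −0.79 in anti-tDR embryos, with limma adjusted p values of 0.0109, 0.0102 and 0.0174. In anti-tDR embryos pas-1 ran over 95.08, 253.595 and 457.2 TPM at 8 cells and 104.06, 515.83 and 753.97 TPM at 2 cells.

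For pas-4 the lowest, median and highest levels were 55.51, 85.905 and 189.58 TPM in rnst-2-sired 8-cell embryos and 93.98, 190.13 and 534.06 TPM at 2 cells. In WT-sired embryos they were 13.03, 97.23 and 166.78 TPM at 8 cells and 90.58, 159.84 and 408.33 TPM at 2 cells. Most 8-cell embryos lay under the 2-cell median in both sets, and pas-4 fell by 1.05 ± 0.18 on the log2 scale in rnst-2-sired and by 1.26 ± 0.21 in WT-sired embryos (limma adjusted p = 2.49e-06 and 3.22e-06). pas-7, at 12.14, 29.89 and 110.21 TPM in rnst-2-sired 8-cell embryos and 38.52, 66.79 and 321.3 TPM at 2 cells, fell by 1.204 ± 0.24 (limma adjusted p = 5.98e-05). In WT-sired embryos pas-7 fell by 1.12 (limma adjusted p = 0.0118). In anti-tDR embryos the 2-cell range of pas-4 began at 0 TPM and its log2 fold change was not called.

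**Figure D2:**
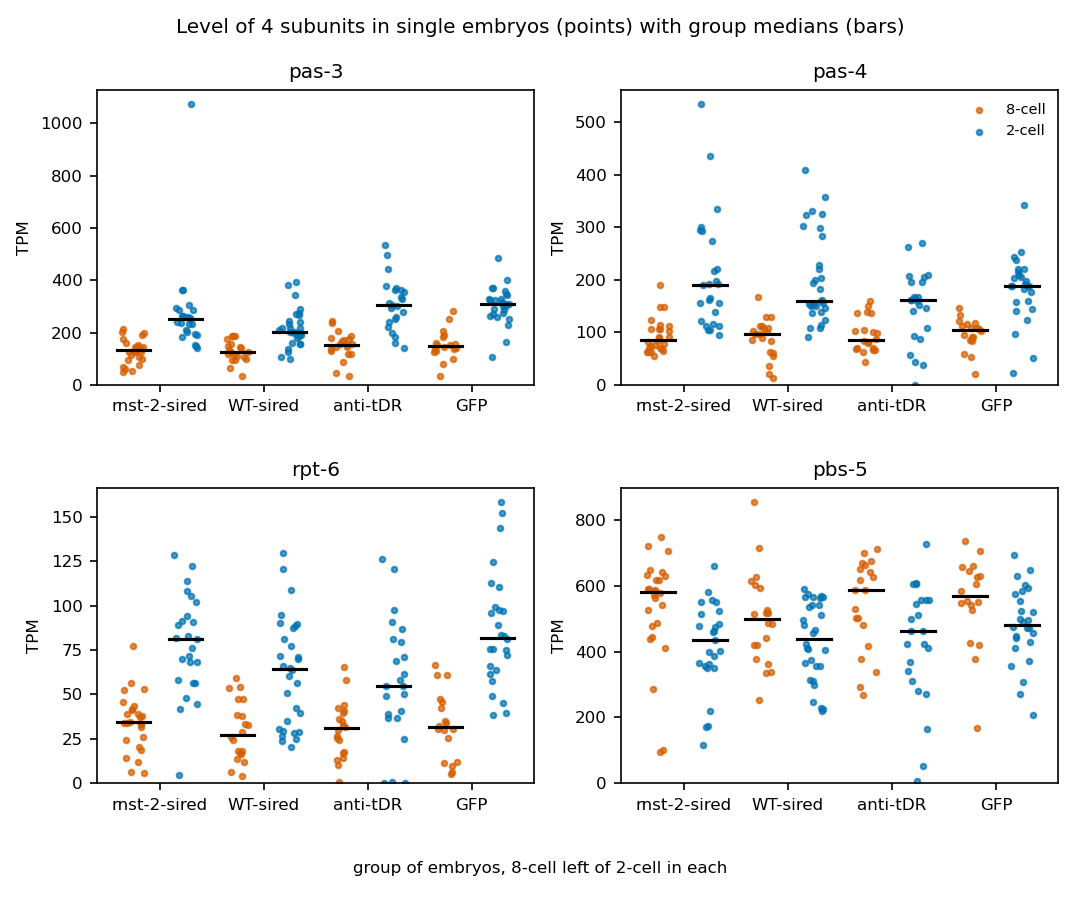
TPM of pas-3, pas-4, rpt-6 and pbs-5 in each single embryo (points; y axis from 0), with 8-cell embryos left of 2-cell embryos in each kind and bars at the group medians. The 8-cell medians of pas-3, pas-4 and rpt-6 lie below the 2-cell medians in all 4 kinds of embryo and those of pbs-5 lie above.

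The 3 catalytic subunits of the beta ring were called in none of the 4 comparisons. pbs-5, the chymotrypsin-like subunit, ran over 94.88, 581.965 and 749.17 TPM (lowest, median, highest) in rnst-2-sired 8-cell embryos and 116.39, 434.91 and 662.2 TPM at 2 cells. In WT-sired embryos it ran over 251.91, 500.795 and 855.6 TPM at 8 cells and 220.02, 439.995 and 590.38 TPM at 2 cells. Its log2 fold change was 0.33, 0.22, 0.64 and 0.19 in rnst-2-sired, WT-sired, anti-tDR and GFP embryos (limma adjusted p = 0.232, 0.226, 0.211 and 0.351). pbs-1 gave −0.07, 0.17, 0.04 and −0.16 and pbs-2 gave 0.28, 0.20, 0.29 and 0.26 in that order of groups. Of the other beta genes pbs-3 (−0.52, limma adjusted p = 0.0248) and pbs-4 (−0.73, 0.0205) fell in WT-sired embryos. pbs-7 rose there by 0.33 ± 0.12 (limma adjusted p = 0.0309), at 410.28, 656.66 and 1003.63 TPM at 8 cells and 226.41, 565.865 and 719.4 TPM at 2 cells. pbs-4 also fell in rnst-2-sired embryos (−0.72, limma adjusted p = 0.0156), and no beta gene was called in GFP or anti-tDR embryos.

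Among the base ATPases rpt-6 stood apart. It ran over 5.45, 34.2 and 77.28 TPM (lowest, median, highest) in rnst-2-sired 8-cell embryos and 4.78, 81.38 and 128.6 TPM at 2 cells. In WT-sired embryos it ran over 3.73, 27.285 and 59.07 TPM at 8 cells and 20.52, 64.185 and 129.38 TPM at 2 cells, and in GFP embryos over 5.32, 31.515 and 66.6 TPM at 8 cells and 38.42, 81.92 and 158.31 TPM at 2 cells. The 8-cell medians were under the 2-cell medians in each set, and the log2 fold change was −1.21 ± 0.25, −1.15 ± 0.26 and −1.59 ± 0.25 in rnst-2-sired, WT-sired and GFP embryos (limma adjusted p = 0.00016, 0.000458 and 9.25e-07). In anti-tDR embryos rpt-6 was at 0.32, 30.82 and 65.55 TPM at 8 cells and 0, 54.65 and 126.41 TPM at 2 cells, and was not called. The only other ATPase called was rpt-5 in GFP embryos (−0.83, limma adjusted p = 0.000601).

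Of the base scaffolds and receptors, rpn-10, a ubiquitin receptor, rose in WT-sired embryos by 0.39 ± 0.14 (limma adjusted p = 0.0311), at 268.47, 425.205 and 604.38 TPM at 8 cells and 135.46, 329.2 and 520.62 TPM at 2 cells. The scaffold rpn-1 fell in GFP embryos by 0.91 (limma adjusted p = 0.000437). In the lid, rpn-8, the partner of the deubiquitinase rpn-11, fell in WT-sired (−0.81 ± 0.19, limma adjusted p = 0.00068) and GFP embryos (−1.02, 0.0084). rpn-3 and rpn-9 fell in rnst-2-sired (−0.87 and −0.53, limma adjusted p = 0.0342 and 0.0484) and GFP embryos (−0.68 and −0.61, 0.00219 and 0.00149), and rpn-5 fell in GFP embryos (−0.50, 0.0298). rpn-6.1, which anchors the lid to the core, was not called in any of them, and its paralog rpn-6.2 averaged between 1.54 and 5.86 TPM and was at 0 in 18 of 30 WT-sired 2-cell embryos.

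The members called were shared in part between the kinds of embryo, which hold no embryo in common. Of the 8 called in rnst-2-sired and the 12 called in WT-sired embryos, 6 were shared (75.0% and 50.0%): pas-1, pas-3, pas-4, pas-7, pbs-4 and rpt-6. GFP and WT-sired embryos shared 7 (53.8% of 13 and 58.3% of 12), and the 2 called in anti-tDR embryos were both called in GFP embryos (15.4% of 13). The difference in stage effect between rnst-2-sired and WT-sired embryos was tested as an interaction and passed for 0 of 32 members (0 at an unadjusted p under 0.05; 0.0299% of 6699 genes passed). Between anti-tDR and GFP embryos it passed for 0 members, as for 0.00% of 6565 genes. The different counts in the 4 kinds of embryo are therefore not shown to be different effects. Without the embryos under 5000 genes, an alternative added after the data were seen, anti-tDR embryos gave 14 called members in place of 2.

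Genes that work with the proteasome were counted in the same tests. The SKN-1A pathway list holds skn-1, all of whose isoforms are counted together, ddi-1, png-1, sel-1, sel-11 and xbp-1. Of these 6, 2 fell in rnst-2-sired, 1 fell and 1 rose in WT-sired, 0 were called in anti-tDR and 3 fell in GFP embryos at 8 cells. png-1, the N-glycanase that edits SKN-1A, changed by −1.66 in rnst-2-sired, −2.17 in WT-sired and −2.09 in GFP embryos (limma adjusted p = 4.97e-05, 8e-07 and 7.8e-07). Of 14 proteasome-associated and extraction factors 4 fell in rnst-2-sired, 4 fell and 2 rose in WT-sired, 0 were called in anti-tDR, and 5 fell and 1 rose in GFP embryos. The unfoldase cdc-48.1 was lower in the same 3 sets (−1.53, −1.13 and −1.30), as was the deubiquitinase ubh-4 (−1.22, −1.30 and −1.35). The COP9 signalosome, a complex related to the lid, had 1 of 6 genes fall in each of these 3 sets, csn-5, its counterpart of rpn-11 (−1.31, −0.99 and −1.44), and 2 rise in WT-sired embryos. Of 16 genes for ubiquitin, its activation and conjugation (15 in anti-tDR embryos), 1 fell in rnst-2-sired, 6 rose and 1 fell in WT-sired, 0 were called in anti-tDR and 5 fell in GFP embryos. Of 11 eIF3 genes, 1 rose and 1 fell, 6 rose, 0 were called and 1 fell in these groups. Early zygotic transcripts, as a check of stage, had 8, 8, 9 and 9 genes called higher at 8 cells in rnst-2-sired, WT-sired, anti-tDR and GFP embryos, and of 7 oocyte markers 5, 4, 3 and 6 fell.

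The embryos of rnst-2 mutant fathers were compared with WT-sired embryos at each stage. At 2 cells 0 of 32 members passed in limma and 0 had an unadjusted p under 0.05, where 0.00% of 6120 genes passed and 176 had an unadjusted p under 0.05. The median log2 fold change was 0.10 over the members and 0.16 over all genes, with 21 members higher and 11 lower. pas-3, whose 2-cell levels are given above, differed by 0.28, pas-7 by 0.46 and rpt-6 by 0.34, each with a limma adjusted p of 1.

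At 8 cells 0 members passed and 3 had an unadjusted p under 0.05 (0.0431% of 6958 genes passed). 24 members were lower and 8 higher in rnst-2-sired embryos, with a median of −0.19 beside −0.17 over all genes, and median-of-ratios scaling turned this to 19 lower and 14 higher. The members with the smallest p were parts of the regulatory particle. The scaffold rpn-2 ran over 1.62, 100.885 and 173.98 TPM (lowest, median, highest) in rnst-2-sired embryos and 50.45, 136.975 and 259.6 TPM in WT-sired embryos, with a log2 fold change of −0.84. The receptor rpn-13 ran over 0, 84.585 and 139.65 TPM in rnst-2-sired embryos and 51.4, 109.355 and 194.49 TPM in WT-sired embryos (−0.79), and the ATPase rpt-4 over 0, 98.17 and 167.56 TPM and 70.31, 120.945 and 204.09 TPM (−0.75). The lowest rnst-2-sired embryos reached far below the WT-sired range while the upper parts overlapped, and the limma adjusted p was 0.624 for each. Of the 26 rnst-2-sired embryos 4 stood apart, 3 of them by body muscle markers (up to 702.86 TPM, against at most 3.88 TPM in WT-sired embryos). Without these and the 3 WT-sired embryos that stood apart, an alternative added after the data were seen, 0 members passed, with a median of −0.15 beside −0.15 over all genes. By group, the median log2 fold change was 0.02 for the alpha ring, −0.01 for the beta ring, −0.34 for the ATPases, −0.77 for the base scaffolds and receptors and −0.37 for the lid.

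Injection of oligonucleotides antisense to tDRs was compared with injection of GFP mRNA alone in embryos of rnst-2 mutant fathers. At 2 cells 0 of 32 members passed in limma and 8 had an unadjusted p under 0.05, where 0.318% of 6294 genes passed and 1924 had an unadjusted p under 0.05. 27 members were lower in anti-tDR embryos, with a median of −0.32 beside −0.52 over all genes, and median-of-ratios scaling gave 19 lower and 13 higher. The smallest adjusted p was that of pas-1 (104.06, 515.83 and 753.97 TPM in anti-tDR embryos, 417.14, 627.935 and 913.92 TPM in GFP embryos), at −0.63 ± 0.19 (limma adjusted p = 0.0654). The ATPase rpt-5 ran over 0.07, 158.14 and 306.73 TPM in anti-tDR and 79.94, 230.665 and 348.83 TPM in GFP embryos (−1.17, limma adjusted p = 0.0806). rpt-6 differed by −1.14 (limma adjusted p = 0.0815). For these 3 genes the low end of the anti-tDR range lay under every GFP embryo, and 7 of the 23 anti-tDR embryos but no GFP embryo had under 5000 genes above 1 TPM. The part of those embryos in the differences was not tested beyond the fit without them, in which 0 members passed. rpt-2 went the other way (0.66, limma adjusted p = 0.11), with a mean of 998.427 ± 1622.44 TPM (SD, n = 23) in anti-tDR embryos, the highest at 6192.33 TPM, and a mean of 336.222 ± 67.627 TPM (SD, n = 26) in GFP embryos. At 8 cells 0 members passed and 0 had an unadjusted p under 0.05 (0.00% of 6588 genes passed).

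Summed over the 33 genes, subunit mRNA had a median of 6506.37 TPM in rnst-2-sired and 6150.16 TPM in WT-sired 8-cell embryos, and of 7026.97 and 6671.46 TPM at 2 cells. Injected embryos had medians of 6247.16 TPM (anti-tDR) and 6386.54 TPM (GFP) at 8 cells and 7696.69 and 7974.16 TPM at 2 cells. The medians of the 8 groups of embryos thus lay between 6150.16 and 7974.16 TPM, and the single embryos of the rnst-2-sired 8-cell group between 1752.83 and 7415.15 TPM.

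In adult F1 animals the sexes differed far more than the sires. In rnst-2-sired animals 31 of 33 members were called higher and 1 lower in females than in males, where 61.8% of 8940 genes were called higher and 23% lower. In WT-sired animals 27 were higher and 1 lower (all 8368 genes: 57.7% and 25.3%). Of the 32 members called in rnst-2-sired animals 28 were also called in WT-sired animals (87.5% of the 32, and every one of the 28 called there). The median log2 fold change over the members was 1.36 in rnst-2-sired and 1.18 in WT-sired animals, and the median over all genes was itself 1.11 and 0.88. Scaling by the median of ratios took the median of all genes to 0.00 and −0.06 and that of the members to 0.28 and 0.28, with 14 members higher and 6 lower in rnst-2-sired and 15 higher and 3 lower in WT-sired females. Among all genes that scaling called 3356 higher and 3544 lower in rnst-2-sired and 2888 and 3336 in WT-sired females. Values for males are relative to a pool rich in sperm mRNA. The 14 sperm markers summed to 1.37 to 4.26 TPM in females and 52256.52 to 61579.76 TPM in males, the oocyte markers to 3923.44 to 5339.65 and 214.19 to 342.27 TPM, and the intestine markers to 3342.55 to 7214.69 and 15.11 to 30.53 TPM. Their part in the members' differences was not tested. A second set of column names in the F1 table calls the same columns progeny of heterozygous and of catalytic-mutant fathers, and the sample labels are followed here.

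**Figure D3:**
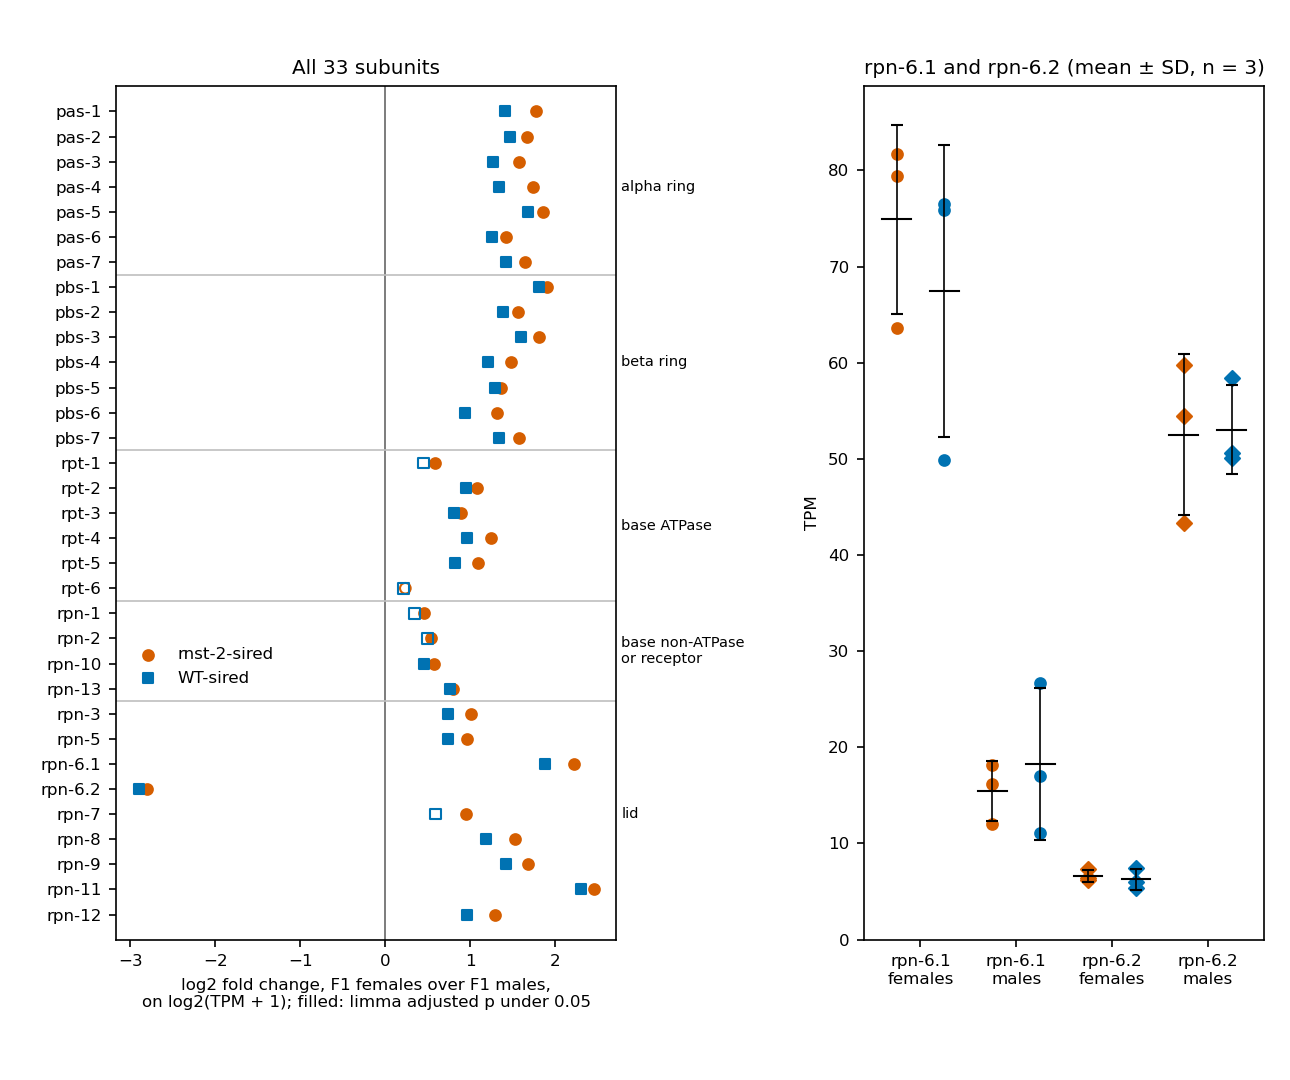
Left, log2 fold change of each of the 33 subunit mRNAs in F1 females over F1 males (x axis, on log2(TPM + 1)), filled where limma's adjusted p was under 0.05; right, TPM of rpn-6.1 (circles) and rpn-6.2 (diamonds) in each sample, with mean ± SD (n = 3), orange for rnst-2-sired and blue for WT-sired. All members lie right of 0 except rpn-6.2, whose points in males lie between 43.33 and 59.72 TPM and in females between 5.34 and 7.48 TPM.

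The core barrel showed the sex difference most evenly. All 7 alpha and all 7 beta genes were higher in females under both sires, with medians of 1.66 and 1.56 in rnst-2-sired and 1.40 and 1.33 in WT-sired animals. With median-of-ratios scaling 6 alpha and 4 beta genes were called higher in rnst-2-sired females, and 7 and 5 in WT-sired females. Of all genes 3356 and 2888 were called higher on that scaling. pas-5 had 649.12, 667.23 and 630.99 TPM in rnst-2-sired females against 185.61, 182.36 and 170.16 TPM in rnst-2-sired males, and 548.1, 568.15 and 601.84 TPM in WT-sired females against 175.35, 175.93 and 182.31 TPM in WT-sired males. The lowest female was thus far above the highest male, and the log2 fold change was 1.85 and 1.68 (limma adjusted p = 8.49e-07 and 2.83e-06).

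pbs-1, a catalytic subunit, had 634.99, 575.84 and 507.14 TPM in rnst-2-sired females against 149.49, 158.1 and 146.93 TPM in rnst-2-sired males, and 699.6, 651.87 and 724.66 TPM in WT-sired females against 189.38, 179.29 and 226.71 TPM in WT-sired males. The log2 fold change between the sexes, with no overlap, was 1.91 in rnst-2-sired and 1.80 in WT-sired animals (limma adjusted p = 2.7e-06 and 7.94e-06). For pbs-2 it was 1.56 and 1.39 (limma adjusted p = 9.93e-06 and 1.75e-05) and for pbs-5 1.36 and 1.30 (1.44e-05 and 2.92e-05).

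On TPM the log2 fold changes of the base had lower medians than those of the core, a difference that was not tested. The 6 ATPases had medians of 0.98 in rnst-2-sired and 0.81 in WT-sired animals, with 5 and 4 called higher, and the 4 scaffolds and receptors medians of 0.56 and 0.47, with 4 and 2 called higher. rpt-6 had 135.76, 147.95 and 126.97 TPM in rnst-2-sired females against 120.9, 123.27 and 104.41 TPM in rnst-2-sired males, and 141.62, 143.43 and 161.3 TPM in WT-sired females against 114.7, 126.34 and 143.94 TPM in WT-sired males. Its difference of 0.24 and 0.22 did not pass (limma adjusted p = 0.0915 and 0.161). With median-of-ratios scaling rpt-6 was among the members lower in females, at −0.84 and −0.68, with rpn-10 under both sires and rpn-1, rpn-2 and rpt-1 under rnst-2 sires. On that scaling the scaffolds and receptors had medians of −0.52 in rnst-2-sired and −0.42 in WT-sired animals and the ATPases −0.10 and −0.09, where the alpha ring stood at 0.58 and 0.50 and the beta ring at 0.48 and 0.43.

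In the lid, rpn-11, the deubiquitinase, had the largest log2 fold change toward females among the 33. It had 240.16, 222.64 and 204.05 TPM in rnst-2-sired females against 39.44, 44.22 and 36.06 TPM in rnst-2-sired males, and 268.69, 271.64 and 314.01 TPM in WT-sired females against 59.28, 53.0 and 59.06 TPM in WT-sired males. The difference was 2.45 ± 0.12 and 2.30 ± 0.12 (limma adjusted p = 1.27e-06 and 2e-06), or 5.46-fold and 4.91-fold on the TPM + 1 scale.

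The paralogs rpn-6.1 and rpn-6.2 went in opposite directions. rpn-6.1 had 63.62, 79.43 and 81.69 TPM in rnst-2-sired females against 16.2, 18.14 and 12.04 TPM in rnst-2-sired males, and 49.89, 76.49 and 75.92 TPM in WT-sired females against 11.06, 17.04 and 26.72 TPM in WT-sired males. rpn-6.2 had 7.33, 6.18 and 6.36 TPM in rnst-2-sired females against 59.72, 54.42 and 43.33 TPM in rnst-2-sired males, and 5.34, 7.48 and 6.03 TPM in WT-sired females against 50.07, 50.66 and 58.41 TPM in WT-sired males. Neither gene's ranges overlapped between the sexes. rpn-6.1 was higher in females by 2.22 ± 0.18 and 1.88 ± 0.33 (limma adjusted p = 1.74e-05 and 0.00123). rpn-6.2 was lower in females by log2 fold changes of −2.80 ± 0.15 and −2.90 ± 0.16 (limma adjusted p = 2.13e-06 and 2.49e-06) and was the only member called lower there on TPM. It supplied 7.22% to 10.3% of the pair's TPM in females and 68.6% to 81.9% in males, and with median-of-ratios scaling it was lower by −3.80 and −3.73.

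The related lists were also mostly higher in females on TPM, a scale on which the median of all genes was higher too. In rnst-2-sired and WT-sired animals the SKN-1A pathway had 5 and 5 of 6 genes called higher, the associated factors 13 and 12 of 14, ubiquitin with its activation and conjugation 16 and 14 of 18, the COP9 signalosome 6 and 6 of 6, and eIF3, a translation initiation factor that shares folds with the lid, 11 and 11 of 11. The COP9 gene csn-2 differed most among those named, by 3.09 and 2.42 (limma adjusted p = 0.000162 and 1.39e-05).

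Within a sex the sire made no called difference. In females 0 of 33 members passed in limma and 5 had an unadjusted p under 0.05, while 4.88% of 7725 genes passed (377 genes) and 2428 had an unadjusted p under 0.05. The median over the members was 0.02 beside 0.22 over all genes. On TPM 20 members were higher and 13 lower in rnst-2-sired females, and with median-of-ratios scaling 1 was higher and 32 were lower, at medians of −0.27 for the members and −0.05 for all genes. Replicates did not overlap for 7 members that were higher (pas-2, pas-4, pas-5, pas-7, pbs-3, pbs-4 and rpn-8) and 4 that were lower (rpn-11, pbs-1, pbs-2 and pbs-5), where 34.9% and 4.21% of all genes did not overlap. The lower ones are the 3 catalytic subunits and the deubiquitinase. rpn-11 was closest to passing, at −0.36 ± 0.11 (limma adjusted p = 0.0785), and rpn-8 and pbs-1 gave 0.38 and −0.28 (0.114 and 0.128).

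In males 0 members passed and 4 had an unadjusted p under 0.05 (0.0707% of 7072 genes passed). 31 members were lower and 2 higher in rnst-2-sired males, with a median of −0.22 beside −0.02 over all genes. Replicates did not overlap for 8 lower members (pas-3, pas-6, pbs-1, pbs-2, pbs-5, pbs-6, pbs-7 and rpn-11) and for 0 higher ones, where 6.69% and 3.07% of all genes did not overlap. rpn-11 differed by −0.51 ± 0.17 and pbs-6 by −0.42, each with a limma adjusted p of 0.927. The sire effect in females minus that in males passed for 0 members (2 at an unadjusted p under 0.05; 0.0689% of 8714 genes passed). It was above 0 for all 33 on TPM and for 13 of 33 with median-of-ratios scaling. The 33 genes summed to 9236.7 ± 362.5 TPM in rnst-2-sired females and 9102.1 ± 682.7 TPM in WT-sired females, and to 3506.9 ± 359.9 and 4028.7 ± 482.9 TPM in males (SD, n = 3).

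Endo-siRNAs against the 33 genes were much scarcer in sperm than in whole males. Summed over the genes, WT sperm libraries held 302.424, 231.528, 223.983 and 290.724 reads-per-million of all counts (rpm), against 1640.58, 1162.08, 762.795 and 825.046 rpm in WT males. All 33 genes fell in edgeR and none overlapped between the groups, where 58.8% of 11654 endo-siRNA targets were called lower, 2.43% higher, and 55.6% did not overlap in that direction (2.59% in the other). The median log2 fold change was −2.16 for the members and −0.87 for all endo-siRNA targets. Endo-siRNAs of the eIF3 genes fell as far (11 of 11 called lower, median −2.41). Oocyte markers had 7 of 7 called lower (−2.13) and the COP9 signalosome 6 of 6 (−1.69). Of 13 sperm markers 7 were called lower and 1 higher (−0.50). The drop was thus not particular to the members. Leaving out any 1 library, TMM factors, DESeq2 or counting without rRNA kept all 33 called. Scaled to the sum of endo-siRNAs in place of all counts, the members took 641.52 to 769.02 rpm in sperm and 1779.76 to 3392.73 rpm in males. rRNA fragments made up 21.9% of sperm and 4.14% of male counts on average.

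**Figure D4:**
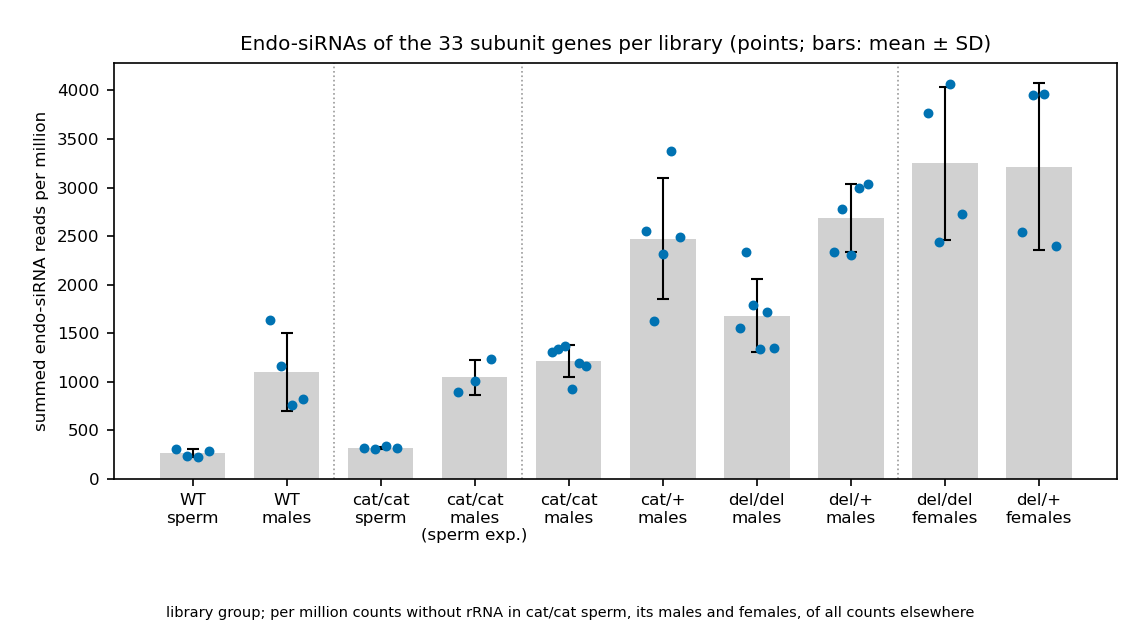
Summed endo-siRNA rpm over the 33 subunit genes in each small RNA library, of counts other than rRNA for cat/cat sperm, their males and the females and of all counts elsewhere (points; bars are the mean, whiskers ± SD, n as in the groups above). WT sperm lie between 223.983 and 302.424 of all counts and cat/cat sperm reach at most 336.662 of counts other than rRNA, so their levels are not on the same scale. The lowest whole-animal library lies at 762.795, and del/del and del/+ females cover nearly the same range.

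rpn-11 endo-siRNAs stood at 8.71, 5.58, 5.92 and 6.54 rpm in WT sperm against 76.1, 37.9, 38.2 and 31.6 rpm in WT males, the largest decrease of the 33 (−2.78, edgeR adjusted p = 3.8e-06). For rpn-6.1 they were 2.68, 2.63, 2.64 and 3.38 rpm in sperm against 18.2, 15.6, 14.9 and 10.3 rpm in males (−2.38, edgeR adjusted p = 2.49e-06). For rpn-6.2 they were 24.6, 19.4, 19.05 and 25.5 rpm in sperm against 66.2, 49.4, 36.5 and 44.6 rpm in males (−1.15, edgeR adjusted p = 0.000243). rpn-6.2 thus had more endo-siRNAs than rpn-6.1 in every one of these libraries and kept more of them in sperm, with pbs-4 (−1.04) the only member that fell less. The medians were −2.43 for the alpha ring, −2.44 for the beta ring, −1.999 for the ATPases, −1.91 for the base scaffolds and receptors and −2.19 for the lid. pbs-1, pbs-2 and pbs-5 fell by 2.44, 2.49 and 2.61 (edgeR adjusted p = 1.12e-05, 7.52e-06 and 4.79e-06), and rpt-3 and rpn-3 changed by −2.60 and −2.19 (3.1e-06 and 3.76e-06).

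Sense fragments of the same mRNAs went the other way. They summed to 194.175, 218.659, 188.801 and 255.521 rpm in WT sperm against 60.003, 43.2291, 37.8724 and 39.5355 rpm in WT males. In edgeR 30 of 33 genes rose and 29 did not overlap, where 64.5% of 9495 mRNA-fragment targets rose, 5.63% fell and 62.8% did not overlap. The median was 2.15 beside 1.79 over that class. The eIF3 genes had 11 of 11 called higher (median 3.30) and the oocyte markers 9 of 9 (3.20). Intestine markers had 4 of 4 called higher (3.6), body muscle markers 3 of 3 (3.5027) and sperm markers 13 of 13 (2.20). The 1 early zygotic transcript tested stood at 0.85 and was not called. The rise was thus not particular to the members. Why fragments of somatic markers rose in sperm was not tested. rpn-1 fragments stood at 21.2, 27.7, 24.5 and 27.6 rpm in sperm against 1.43, 2.70, 2.11 and 2.27 rpm in males (3.56, edgeR adjusted p = 2.52e-07), and rpn-2 fragments at 19.2, 24.9, 20.8 and 26.999 rpm against 3.80, 2.18, 1.80 and 1.34 rpm (3.35, 1.49e-06). Male counts were low, with a mean of 36.5 reads for rpn-2. pbs-2, at 0.38, and rpn-12, at 0.67, were not called (edgeR adjusted p = 0.376 and 0.0704).

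Whole males that lack rnst-2 function had fewer endo-siRNAs against subunit genes in rpm of all counts. In del/del males 19 of 33 genes fell in edgeR, all 33 had a negative fold change and 13 did not overlap, where 17.9% of 10008 targets fell and 14.7% did not overlap. In cat/cat males 29 fell, all 33 were negative and 20 did not overlap (all 10196 targets: 17% and 13%). The sums were 1341.6, 1716.87, 1342.57, 1548.54, 2339.81 and 1793.89 rpm in del/del males against 2337.32, 2777.04, 2304.83, 2993.63 and 3032.4 rpm in del/+ males. They were 1368.15, 920.084, 1194.35, 1157.47, 1304.74 and 1333.25 rpm in cat/cat males against 2553.91, 1629.19, 2313.8, 3377.96 and 2486.77 rpm in cat/+ males. del/del replicate 5 alone reached the del/+ range, and the cat groups did not overlap.

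These calls depended on the library size. rRNA fragments made up 20.8% of counts in del/del and 4.22% in del/+ males, and 24.1% in cat/cat and 4.34% in cat/+ males, and endo-siRNAs as a class 41.9% and 56.3%, and 40.0% and 57.4%. With counts other than rRNA as the size, 1 member was called in del/del and 0 in cat/cat males, 0 and 0 after TMM scaling, and 1 and 0 in DESeq2. RNAs of all classes called lower in these fits numbered 89 and 6, 10 and 2, and 80 and 44. The members' median log2 fold change was then −0.40 in del/del and −0.66 in cat/cat males without rRNA, −0.26 and −0.43 after TMM scaling and −0.22 and −0.37 in DESeq2. With all counts as the size it was −0.67 in del/del and −0.997 in cat/cat males, beside −0.49 and −0.54 for all endo-siRNA targets. For eIF3 genes the median was −0.62 and −0.84, for the SKN-1A pathway −0.81 and −1.14 and for the COP9 signalosome −0.55 and −0.54. Scaled to the endo-siRNAs alone in this way, the members took 3458.31 to 4832.24 rpm in del/del and 4237.35 to 5179.5 in del/+ males, and 2312.29 to 3643.76 in cat/cat and 2919.63 to 5116.51 in cat/+ males, with overlap in both. Replicate numbers paired the del libraries, and with the replicate block 31 members fell in place of 19. RNAs of all classes called lower then numbered 3022 in place of 1825. The count of members was 12 without del/+ replicate 2, 4 or 5 and 30 without del/del replicate 5, and in cat/cat males it was 19 without cat/cat replicate 2. RNAs called lower numbered 908, 1135, 1068 and 2863 in the del fits, in that order. In the cat/cat fit they numbered 642 in place of 1791.

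**Figure D5:**
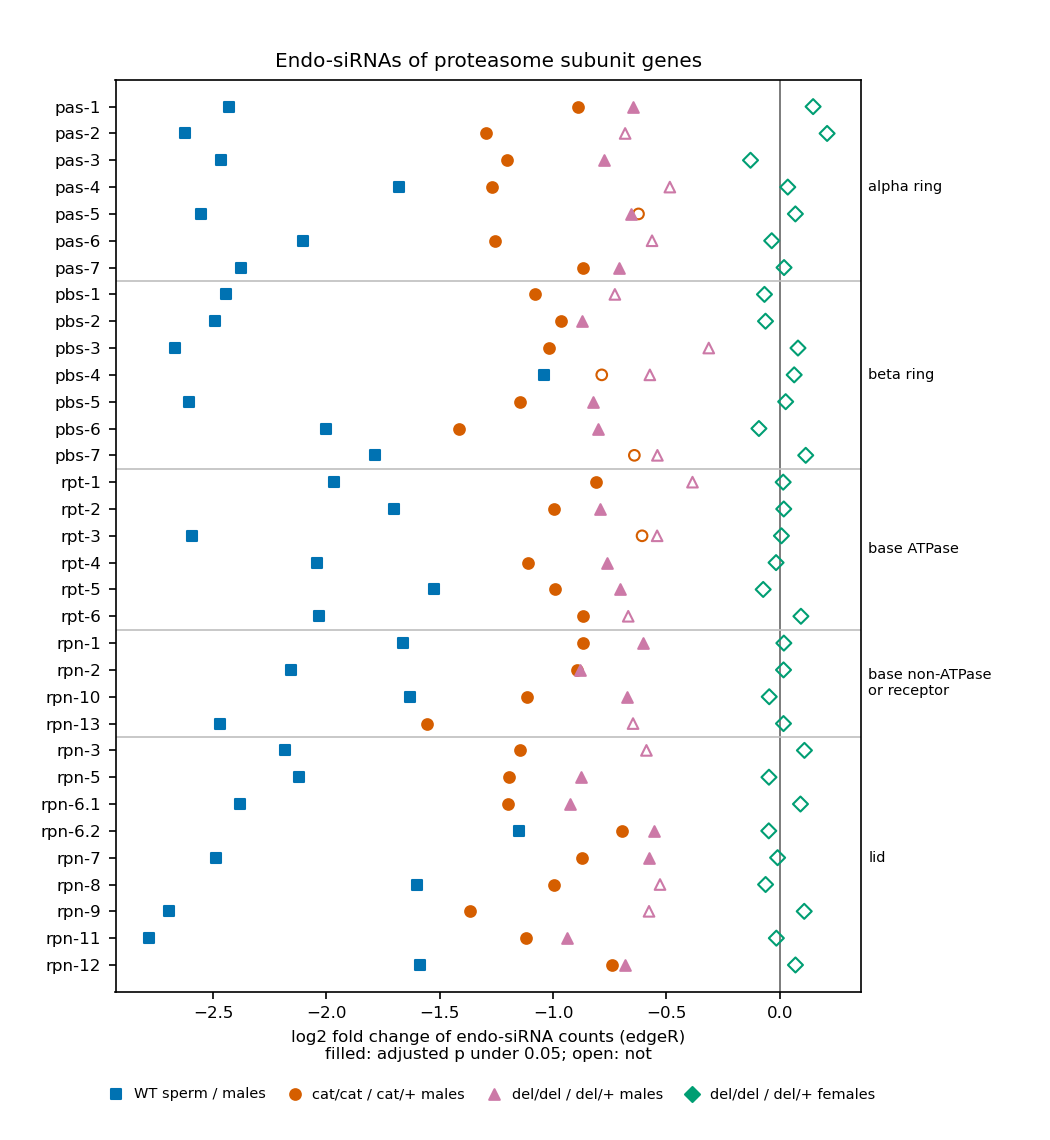
Log2 fold change of endo-siRNA counts for each subunit gene (x axis, edgeR) in WT sperm over WT males, cat/cat over cat/+ males, del/del over del/+ males and del/del over del/+ females, filled where the adjusted p was under 0.05. All 33 genes lie left of 0 in the first 3 comparisons and between −0.13 and 0.21 in females.

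In del/del males the scaffold rpn-2 had the smallest adjusted p. The group medians were −0.66 for the alpha ring, −0.73 for the beta ring, −0.69 for the ATPases, −0.66 for the base scaffolds and receptors and −0.59 for the lid. rpn-2 endo-siRNAs stood at 72.1, 95.3, 74.5, 83.6, 80.5 and 85.8 rpm in del/del males against 145.6, 144.3, 122.4, 168.4 and 174.5 rpm in del/+ males, without overlap (−0.88, edgeR adjusted p = 0.00377). The ATPase rpt-2 and the lid gene rpn-5 followed at −0.79 and −0.88 (edgeR adjusted p = 0.00965 and 0.0106). In cat/cat males rpn-9 stood at 78.9, 49.8, 71.6, 68.3, 65.7 and 55.0 rpm against 163.2, 94.1, 173.7, 279.8 and 127.4 rpm in cat/+ males, without overlap (−1.37, edgeR adjusted p = 0.00938). pbs-5 and rpt-5 gave −1.14 and −0.99 (edgeR adjusted p = 0.0107 and 0.0114). Of the catalytic subunits pbs-1 gave −0.73 in del/del (edgeR adjusted p = 0.0504) and −1.08 in cat/cat males (0.0135), and pbs-2 gave −0.87 and −0.97 (0.011 and 0.0132).

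The paralogs followed. rpn-6.1 endo-siRNAs stood at 12.99, 10.5, 10.8, 9.97, 25.4 and 12.9 rpm in del/del males against 25.1, 21.4, 20.4, 26.7 and 37.1 rpm in del/+ males (−0.93, edgeR adjusted p = 0.0355), and rpn-6.2 at 49.0, 75.0, 60.1, 59.1, 75.3 and 91.0 rpm against 85.5, 110.3, 93.9, 94.2 and 118.0 rpm (−0.56, 0.0476). In cat/cat males the changes were −1.201 for rpn-6.1 and −0.70 for rpn-6.2 (edgeR adjusted p = 0.0429 and 0.019). cat/+ replicate 4 held 60.7 rpm of rpn-6.1 where the other cat/+ libraries held 15.8 to 24.2 rpm, and without it 33 members were called.

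In females no such difference was seen with either library size, and the sexes were not compared in a joint test. With counts other than rRNA 0 members were called in females, where del/del males had 1. With all counts 0 were called, where del/del males had 19. del/del libraries summed to 3763.58, 2442.1, 4061.38 and 2724.98 rpm of counts other than rRNA against 2544.7, 3955.97, 3965.99 and 2395.43 rpm in del/+ females, so that both groups covered nearly the same range. 0 of 33 members passed in edgeR and 0 had an unadjusted p under 0.05 (0.0101% of 9913 targets passed; DESeq2 called 0 members). The median was 0.02, with 20 genes higher and 13 lower, and the widest single change was 0.21 in pas-2. The paralogs stood in the other order from males, with 83.5, 59.2, 86.7 and 69.0 rpm of rpn-6.1 in del/del females and 56.9, 83.4, 88.6 and 51.6 rpm in del/+ females, and 28.01, 35.7, 31.1 and 43.7 rpm and 44.1, 36.3, 30.6 and 31.7 rpm of rpn-6.2. In both sexes the paralog with the higher mRNA level in F1 adults was the one with more endo-siRNAs, a description over different animals and fathers.

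Sperm of cat/cat males were compared with WT sperm on counts other than rRNA, since rRNA fragments made up 63.8% of cat/cat sperm counts. Of 33 genes 1 rose and 3 fell in edgeR, and 2 higher and 3 lower ones did not overlap, where 7.68% of 10515 targets rose and 39.1% fell, and 6.32% and 38.6% did not overlap. The ATPase rpt-1 rose by 0.93 (edgeR adjusted p = 0.0025). The ATPase rpt-2 fell by 0.82, the scaffold rpn-1 by 0.58 and the alpha ring gene pas-5 by 0.80 (edgeR adjusted p = 0.00326, 0.0264 and 0.0339). Reads were few in cat/cat sperm, with 10, 10, 22 and 35 of pas-5, against 152, 118, 254 and 147 in WT sperm. Without cat/cat sperm replicate 2 the number of members called was 2. With all counts as the size 31 were called and rpt-1 stood at −0.20, with TMM factors 6 and with DESeq2 8. RNAs of all classes called lower numbered 13277, 6108 and 6219 in these fits and 5439 in the main fit. The median over the members in the main fit was −0.07, beside −0.53 over the class. This comparison shares the WT sperm libraries with the one against WT males.

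Within the cat/cat genotype all 33 genes fell in sperm against whole males (70% of 9049 targets fell and 2.77% rose; none of the members overlapped, as for 69.6% of targets), with a median of −1.76 beside −1.15 over the class. The eIF3 genes had 11 of 11 called lower in the same comparison (median −2.12) and the sperm markers 8 of 12 (−0.61). Sums over the members were 312.756, 308.097, 336.662 and 314.887 rpm of counts other than rRNA in cat/cat sperm against 888.847, 1003.17 and 1238.52 rpm in cat/cat males. pbs-2, rpn-9 and pas-1 changed by −2.09, −2.30 and −1.76 (edgeR adjusted p = 2.38e-05, 3.17e-05 and 3.99e-05), rpn-6.1 by −1.41 and rpn-6.2 by −1.29 (0.00429 and 0.000208). The cat/cat sperm libraries held only 18, 18, 6 and 22 reads of rpn-6.1.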

How the data were processed

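mRNA levels of the 33 genes were measured in single embryos and adult F1 animals, and small RNAs of 18 to 40 nucleotides in whole males, females and sperm. The authors aligned mRNA reads with STAR and used RSEM to obtain TPM. Every deposited TPM value has 1 added to it, which was taken off first. For small RNAs the authors trimmed reads with Trimmomatic, aligned them with Bowtie2 and STAR and assigned them with featureCounts, and deposited counts that are not normalized. The methods name WS245 as the annotation. Positions and sequences come from WBcel235, and no coordinates of the files were joined to it.

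TPM was tested with limma 3.58.1 with a mean-variance trend, after a log2(TPM + 1) transformation, where a gene averaged 5 TPM or more, and counts with the quasi-likelihood test of edgeR 4.0.16 (R 4.3.3) where an RNA reached 10 counts in a number of libraries equal to the smaller group's size. The library size was all counts in whole males and WT sperm against males, and counts other than rRNA in the cat/cat sperm comparisons and females. Fold changes on the log2(TPM + 1) scale understate the change of low genes. Benjamini-Hochberg adjustment ran over all genes or RNAs tested, with a threshold of 0.05. Figures and sums used Python 3.11.15 with numpy 2.4.6, pandas 2.3.3 and matplotlib 3.10.9. Both fits were tested on simulated data.

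Members and gene lists were chosen with earlier results of these data known. Any member could be named. Values per sample are given for up to 3 members per direction with the smallest adjusted p, the catalytic subunits and the paralogs, and other members are named where a count of few genes called for it. The alternatives were a pseudocount of 0.1, a minimum of 1 TPM, no filter, median-of-ratios factors, the other library size, DESeq2 1.42.0, TMM factors, the rule of the methods (an unadjusted p up to 0.01 with more than 1 on the log2 fold scale), a spread shared by all groups, the replicate number as a block and the omission of single samples from small groups, and 2 fits without unusual embryos that were added after the data were seen.

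To test whether replicate numbers pair samples, deviations from group means were correlated between same-numbered samples. Every pair was over 0.1 for del/del with del/+ males (0.143 to 0.413 over 5 pairs, median 0.291) and for the F1 females (0.104 to 0.252 over 3 pairs). Of 83 pairs of small RNA libraries none differed by less than sampling noise, and no mRNA columns were identical. Of the columns of sample values 1 that matched no label, and the piRNA lines of the female table, were not used.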

Additional observations from a re-analysis of the deposited data

Results flagged for a closer look

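Of 66 groups of values tested for a single sample far from the others, 4 had one, where chance gives about 1 in 20. For rpn-6.1 endo-siRNAs it was WT sperm replicate 4 (3.38 rpm, the others 2.63 to 2.68), cat/+ male replicate 4 (60.7 rpm, the others 15.8 to 24.2) and del/del male replicate 5 (25.4 rpm, the others 9.97 to 12.99). For pbs-1 mRNA-fragments it was WT male replicate 1 (1.72 rpm, the others 0.684 to 0.824).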

How the results depend on the processing

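Of 157 alternative fits of the 22 counts of called members, leaving out a replicate aside, 135 stayed within 1.5 times. These include fits in which a count of 0 stayed at 0. The main counts for the sire, the injection, the interactions and the small RNAs of females were 0. The rule of the methods gave 4 members between the stages in rnst-2-sired, 3 in WT-sired, 1 in anti-tDR and 4 in GFP embryos, 2 in anti-tDR against GFP 2-cell embryos and 18 in WT-sired F1 females against males. All members it called in embryos were lower. Of all genes it called 552, 386, 194, 858 and 585 lower in these embryo fits, in that order. In the F1 fit 17 members were higher and 1 lower, beside 3822 and 1815 of all genes. A spread shared by all 4 groups gave 3 in anti-tDR against GFP 2-cell embryos, and leaving out embryos under 5000 genes gave 14 between the stages in anti-tDR embryos. All of these were lower, and those fits called 724 and 1226 of all genes lower. Median-of-ratios factors gave 20 members in rnst-2-sired and 18 in WT-sired F1 females against males. Of all genes they called 3356 higher and 3544 lower, and 2888 and 3336. For del/del against del/+ males the count was 0 with TMM factors, 1 with DESeq2, 1 without rRNA and 7 without a filter, and 12 to 30 on leaving out 1 library. For cat/cat against cat/+ males it was 0, 0, 0 and 14, and 19 to 33. For cat/cat against WT sperm it was 8 with DESeq2, 31 with all counts, where rpt-1 stood at −0.20, and 2 to 5 on leaving out 1 library. The cause was not tested. Of 867 alternatives for 68 named called values, 776 kept their call, 90 lost it and 1 reversed.

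With the replicate block, 31 members were called in del/del against del/+ males, where the numbers pair the libraries, and 3022 RNAs of all classes were called lower. Between the stages in rnst-2-sired embryos the block gave 13 members, all lower, beside 978 genes lower and 756 higher. There 13 of 25 pairs were over 0.1 (−0.18 to 0.44, median 0.109), so whether the numbers pair these embryos was not settled. The block moved no other count by over 1.5 times. TPM keeps no depth, embryos of different days could not be told apart, and the counts of a subunit's mRNA-fragments in male libraries were low. Endo-siRNA counts of some subunits were low in cat/cat sperm.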
